A study of Mus musculus with 24 samples.

Results

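The receptor dependence of the interferon-gamma (IFN-gamma) response was measured in attached ovarian cancer cells, as the IFN-gamma effect in cells carrying an Ifngr1 knockout minus the IFN-gamma effect in control cells. It rests on 12 of the 24 libraries of the series, 3 in each of 4 groups: sgNTC with PBS, sgNTC with IFN-gamma, Ifngr1-KO with PBS and Ifngr1-KO with IFN-gamma. The libraries were chosen by their labels alone. Of the 14622 genes tested, 19 had a response that differed between the lines.

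Every group came from ID8 p53-/-, an ovarian cancer line of the mouse, so both the control line (sgNTC) and the Ifngr1-KO line carry the p53 loss. Cells were grown for 48 hours on regular adherent plates and received recombinant mouse IFN-gamma at 100 ng/ml or the same volume of PBS for the last 24 hours. The other 12 libraries of the series repeat these groups in ultra-low attachment (ULA) plates, where cells stay detached and where, unlike on adherent plates, dead cells were removed before RNA was extracted. Poly-A RNA was sequenced, and the values are read counts per gene. The labels call the 3 libraries of a group biological replicates without saying how the cultures were kept apart, nor whether the knockout line is 1 clone.

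IFN-gamma binds a receptor made of Ifngr1, the ligand-binding chain, and Ifngr2, the accessory chain. The kinases Jak1 and Jak2 on the receptor start a signal that reaches gamma-activated sites in the genome and induces Irf1 and other factors, and these in turn act through interferon-stimulated response elements. In tumour cells the pathway is known for raising antigen presentation by MHC class I, guanylate-binding and immunity-related GTPases, and antiviral proteins.

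Promoters of 4 genes are printed because they carry, within the 250 bases before the RefSeq start, letters that match a gamma-activated site (TTCNNNGAA) or an interferon-stimulated response element (GAAANNGAAA), and because the results below turn on their genes. B2m and Casp12 had a smaller response in the knockout. Irf1 and Gbp2 rose in sgNTC cells and did not pass the test of the difference. The capitals mark the match, which may lie on either strand, and the stretches come from RefSeq on GRCm38.p6, plus strand.
B2m, chr2:122147537-122147686: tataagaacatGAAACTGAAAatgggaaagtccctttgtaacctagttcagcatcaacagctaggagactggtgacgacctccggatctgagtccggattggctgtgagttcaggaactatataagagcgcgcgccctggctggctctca
Casp12, chr9:5345292-5345441: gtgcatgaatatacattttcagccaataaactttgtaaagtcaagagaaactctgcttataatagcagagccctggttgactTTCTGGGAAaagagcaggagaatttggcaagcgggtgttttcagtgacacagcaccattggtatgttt
Irf1, chr11:53769864-53770013: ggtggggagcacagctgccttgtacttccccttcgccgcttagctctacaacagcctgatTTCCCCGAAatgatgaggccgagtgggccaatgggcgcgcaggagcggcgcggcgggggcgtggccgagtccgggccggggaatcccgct
Gbp2, chr3:142620513-142620662: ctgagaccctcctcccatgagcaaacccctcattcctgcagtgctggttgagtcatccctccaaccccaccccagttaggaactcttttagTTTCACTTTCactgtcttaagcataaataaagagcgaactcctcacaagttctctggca
The gamma-activated letters were found in 7.02% and the response-element letters in 2.98% of 32851 RefSeq promoters of that length. Counted by gene, 2197 and 936 of 27025 held them. Of the 43 genes that rose with IFN-gamma in sgNTC cells, 37 were matched to a promoter, and 7 of these genes held the first motif and 11 the second. All 14 genes with a smaller response in the knockout were matched. Among them Casp12 held the first motif, and B2m and Ifi203 the second, which made 6.25% and 12.5% of their 16 promoters. Of the 5 genes with a larger response 4 were matched and none held either. Overlap between the motifs was allowed, and a match describes letters, not binding.

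The adherent libraries held 33494774 to 55947189 counts each. Of the ovarian surface and mesothelial markers Krt8, Krt18, Krt19, Wt1, Msln and Cdh2 were present in all 12. Epcam was at 0 and Cdh1 did not exceed 0.979 CPM, which is the count scaled to a common library size, here by library totals. Krt7 did not exceed 0.513 CPM, and Upk3b ranged from 0.113 to 8.37 CPM and differed between the lines, as given below. The macrophage markers Adgre1 and Tyrobp and the lymphocyte markers Cd3e and Nkg7 were at 0 throughout. Summed macrophage markers stood at 10.7 to 12.8 CPM in sgNTC with IFN-gamma and 13.3 to 14.7 with PBS, without overlap. In the knockout they stood at 13.5 to 16.5 and 14.6 to 16.4, which overlapped. Of these markers Cd68 did not exceed 7.68 CPM. Cd14, scaled by edgeR's TMM factors, averaged 9.66 CPM in sgNTC with IFN-gamma and 10.9 with PBS, and 8.69 and 9.28 in the knockout. Summed endothelial markers stood at 25.4 to 40.0 CPM in the knockout against 5.11 to 7.33 in sgNTC, and fibroblast markers at 15.2 to 20.5 against 40.0 to 57.9, and for these 2 lists the PBS and IFN-gamma ranges overlapped within each line. The endothelial and the fibroblast sum were each almost wholly 1 gene. Vwf, scaled by edgeR's TMM factors, read 24.7 to 39.5 CPM in the knockout and 4.51 to 6.39 in sgNTC. Emcn was at 0, and Pecam1, Cdh5 and Kdr did not exceed 0.979, 0.0886 and 0.027 CPM. Dcn read 15.1 to 57.7 CPM, while Pdgfra did not exceed 0.485 and Lum and Thy1 were at 0. In such bulk samples fewer cells of a type and less RNA per cell cannot be told apart, and the part of these markers in the results was not tested. The third Ifngr1-KO PBS library stood apart: its chi-square distance per gene from the other libraries of its group was 21.2 and 20.9, against 5.99 to 15.5 for all other pairs of the adherent groups. Calls that depend on it are named at the end.

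The knocked-out gene was counted first. Ifngr1 stood at 42.3, 45.5 and 41.8 CPM in the sgNTC PBS libraries, at 44.4, 48.1 and 44.5 in sgNTC with IFN-gamma, at 14.8, 16.7 and 15.4 in the knockout with PBS and at 14.2, 17.0 and 16.5 in the knockout with IFN-gamma. These and all later CPM are scaled by edgeR's TMM factors. The knockout libraries all lay below the sgNTC libraries, and reads over the gene remained. Where the edit lies is not given in the labels, so the level shows lower mRNA and not whether receptor protein was made. The effect of treatment on the transcript was 0.08 in sgNTC and 0.02 in the knockout (log2), neither called, and its interaction was -0.06 on the log2 scale (95% interval -0.29 to 0.17). The accessory chain Ifngr2 (-0.11) and the kinases Jak1 (0.10) and Jak2 (-0.15) had small interactions, and none passed the test.

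IFN-gamma changed 46 genes (0.315% of the genes tested) in sgNTC cells and 1 in knockout cells. In sgNTC cells 43 genes rose (0.294%) and 3 fell (0.0205%), in edgeR's quasi-likelihood test at an adjusted p under 0.05. The 3 were Pfkm, a glycolytic enzyme, Mrc2, a collagen receptor, and Iqgap2, a scaffold protein, with interactions of 0.24, 0.67 and 0.31 that were not called, and the last pair is named after its values were seen. In the knockout only Scaf1 rose (0.00684%) and none fell, with 1215 genes at an unadjusted p under 0.05 and 25 genes called by DESeq2. The 2 counts come from separate libraries, and the difference between the responses was tested directly. It passed for 19 genes (0.130%), with 1630 at an unadjusted p under 0.05. The response was smaller in the knockout for 14 (0.0957%) and larger for 5 (0.0342%). The median interaction over all genes tested was 0.0067 on the log2 scale.

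**Figure D1:**
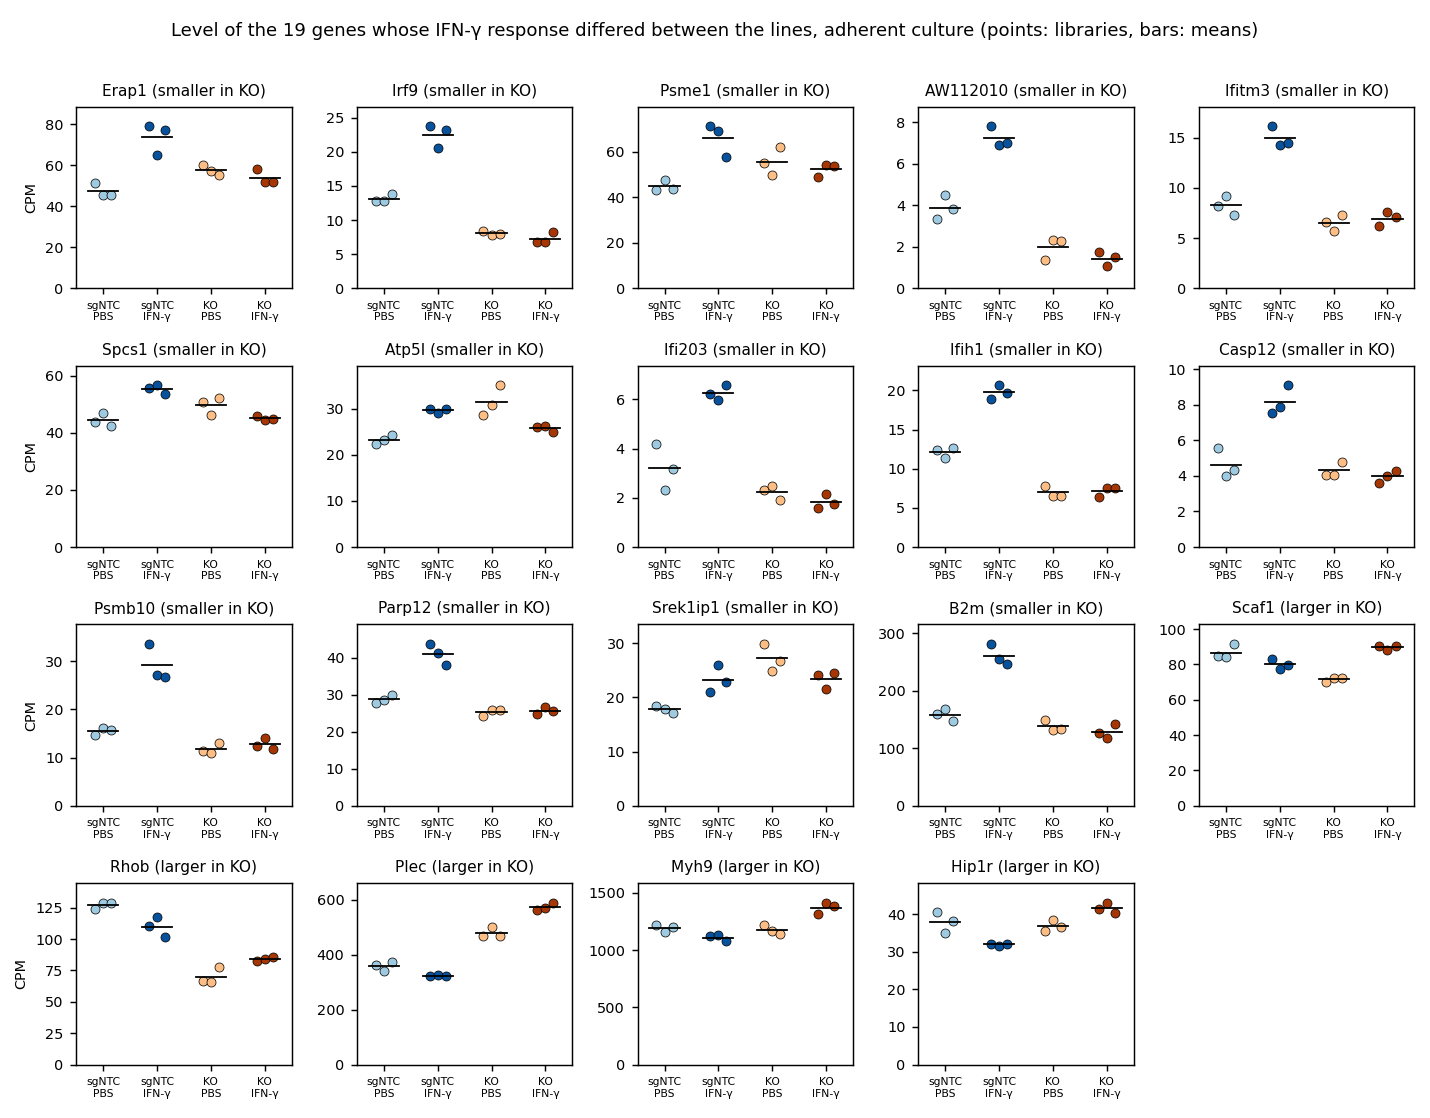
Level in CPM (linear axis from 0) of the 19 genes whose IFN-gamma response differed between the lines, in the 4 adherent groups. Points are libraries (3 per group) and bars are group means. In the 14 genes with a smaller response every sgNTC IFN-gamma library lies above every sgNTC PBS library, and in the 5 with a larger response every knockout IFN-gamma library lies above every knockout PBS library. The same libraries chose the genes, so this separation follows in part from the choice.

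The 2 genes that best held their call lie in antigen processing and in interferon signalling. Erap1 (chr13:74639568-74693201, GRCm38), the endoplasmic reticulum aminopeptidase that trims peptides for MHC class I, stood at 51.2, 45.3 and 45.5 CPM in sgNTC with PBS and at 78.9, 64.7 and 76.9 with IFN-gamma. In the knockout it stood at 60.2, 57.0 and 55.2 with PBS and at 58.3, 51.6 and 51.6 with IFN-gamma. The sgNTC groups were apart and the knockout groups overlapped. The interaction was -0.73 ± 0.11 (log2, SE; adjusted p = 0.00575 by edgeR's quasi-likelihood test), and it stayed called in all 12 fits that left out 1 adherent library and in all 10 other settings.

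Irf9 (chr14:55603571-55610030) is the DNA-binding subunit of a complex that holds Stat2. Its sgNTC libraries rose from 12.8, 12.8 and 13.7 CPM to 23.7, 20.5 and 23.2. The knockout libraries read 8.46, 7.77 and 7.93 CPM with PBS and 6.78, 6.85 and 8.17 with IFN-gamma. Each knockout library, treated or not, lay below each sgNTC library. Its interaction was -0.93 ± 0.16 (adjusted p = 0.00869), and it too stayed called in all 22 refits.

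Other members of the signalling pathway did not pass in the fit of all 24 libraries reported here. Of 23 tested genes of a receptor and JAK-STAT list, Irf9 alone had a smaller response (0.0957% of all genes tested did) and none a larger one. At an unadjusted p under 0.05, 5 of the list were smaller and none larger. At that threshold 4.69% of all genes tested were smaller and 6.46% larger. The list's median interaction was -0.05.

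Irf1, an activator of the MHC class I genes, went from 50.2, 44.2 and 48.3 CPM to 80.9, 68.8 and 73.9 in sgNTC cells. In the knockout it read 41.2, 41.4 and 38.9 CPM with PBS and 41.8, 43.9 and 43.8 with IFN-gamma. Its 3 treated knockout libraries lay just above the 3 untreated ones. The interaction was -0.56 ± 0.13 (adjusted p = 0.088, and 0.072 with an offset for GC content). Irf1 was called by DESeq2, without the filter on low counts and with only the adherent libraries fitted. Stat2, which acts with Irf9, had -0.35 (adjusted p = 0.352). Socs1, the feedback inhibitor of the kinases, stayed at or below 1.07 CPM in all 12 libraries.

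In MHC class I presentation 4 of 21 tested genes had a smaller response (0.0957% of all genes tested did) and none a larger one. They were Erap1, Psme1, Psmb10 and B2m, and the list's median interaction was -0.29 over the 20 members with counts in all groups. Psme1, a subunit of the proteasome activator PA28, read 43.2, 47.8 and 43.7 CPM in sgNTC with PBS and 71.3, 69.0 and 57.6 with IFN-gamma. In the knockout it read 55.1, 49.7 and 62.2 with PBS and 48.8, 54.4 and 53.7 with IFN-gamma. Untreated knockout libraries were thus above untreated sgNTC libraries, and their ranges overlapped those of treated knockout libraries. The interaction was -0.65 ± 0.12 (adjusted p = 0.00887), lost only without the third sgNTC PBS library.

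Psmb10, an immunoproteasome subunit, rose from 14.6, 16.2 and 15.6 CPM to 33.6, 27.1 and 26.8 in sgNTC cells. In the knockout its 3 PBS and 3 IFN-gamma libraries did not exceed 14.1 CPM and overlapped. The interaction was -0.80 ± 0.17 (adjusted p = 0.0363). B2m (chr2:122147686-122153083), the light chain shared by all MHC class I molecules and the first promoter printed above, rose from 159, 169 and 147 CPM to 282, 255 and 246. The knockout libraries held 149, 131 and 134 with PBS and 127, 117 and 143 with IFN-gamma. Treated and untreated knockout libraries overlapped. The interaction was -0.82 ± 0.16 (adjusted p = 0.0489), and B2m kept its call in 1 of the 12 fits that left out a library.

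Several class I genes were near the floor of detection in the knockout. Nlrc5, the transactivator of MHC class I genes, had 159 and 516 counts over the 3 sgNTC libraries with PBS and with IFN-gamma, against 2 and 6 in the knockout. Psmb9, an immunoproteasome subunit, had 41 and 207 against 4 and 2. Psmb8, another such subunit, had 2 and 38 against 0 and 2. A count of 0 allows up to 3 counts, and no fold is given for these. Tap1, a chain of the peptide transporter, rose in sgNTC cells from 2.55, 3.18 and 2.02 CPM to 16.9, 8.75 and 7.88 and stayed at 0.339 to 1.05 in the knockout. Its interaction of -1.50 ± 0.67 had an adjusted p of 0.423. The heavy chains H2-K1 and H2-D1 had interactions of -0.18 and -0.28, both not called and with sgNTC effects of 0.36 and 0.39 that were not called either. With an offset for GC content the sgNTC effect of H2-D1 was 0.42 and was called (adjusted p = 0.0128 by edgeR's quasi-likelihood test).

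The interferon-inducible GTPases had the lowest median interaction of the lists with more than 4 tested members, -1.42 over the 15 members with counts in all groups, and none of the 21 tested was called. In sgNTC cells the treated libraries all exceeded the untreated ones for 16 of the 21 (6.72% of all genes tested did so), and 8 rose by the test. In the knockout 1 of 21 did so (7.69% of all genes) and 1 of 21 was lower in all treated libraries (5.25%). Gbp2, which attacks the membranes around intracellular pathogens, went from 2.87, 3.60 and 2.88 CPM to 25.4, 12.1 and 11.6 in sgNTC cells and read 2.22, 2.32 and 1.98, then 2.01, 2.38 and 2.13, in the knockout. The first treated sgNTC library had about the sum of the other two. The interaction was -2.41 ± 0.56 (adjusted p = 0.132). DESeq2 called it, as did the fits without the filter on low counts and with only the adherent libraries.

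The same library was highest in other members. Irgm2, an immunity-related GTPase, read 20.6, 8.64 and 9.32 CPM in the 3 treated sgNTC libraries, and Iigp1, another, read 9.44, 1.68 and 3.01. Iigp1 had 4 counts over the untreated sgNTC libraries, 574 over the treated ones and 0 in both knockout groups. For 14 of the 21 GTPases the first sgNTC IFN-gamma library was the highest of its group, and for 32 of the 43 genes that rose. Over all genes tested it was the highest for 31.3%. Gbp3, a further guanylate-binding protein, had the lowest interaction among those named (-3.78 ± 0.87, adjusted p = 0.0731). It had 132 and 508 counts over the sgNTC libraries with PBS and with IFN-gamma, against 36 and 13 over the knockout libraries. Its effect was 2.07 in sgNTC and -1.72 in the knockout (log2), the latter not called. The size of its interaction thus rests in part on few knockout counts. Gbp3 was called when the first sgNTC IFN-gamma library was left out, and also without the first sgNTC PBS library, by DESeq2, without the filter on low counts, with only the adherent libraries fitted and with a replicate block. Irgm1, which controls the other immunity-related GTPases, had -0.84 ± 0.23 (adjusted p = 0.159). It was called by DESeq2, without the filter and with only the adherent libraries fitted.

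**Figure D2:**
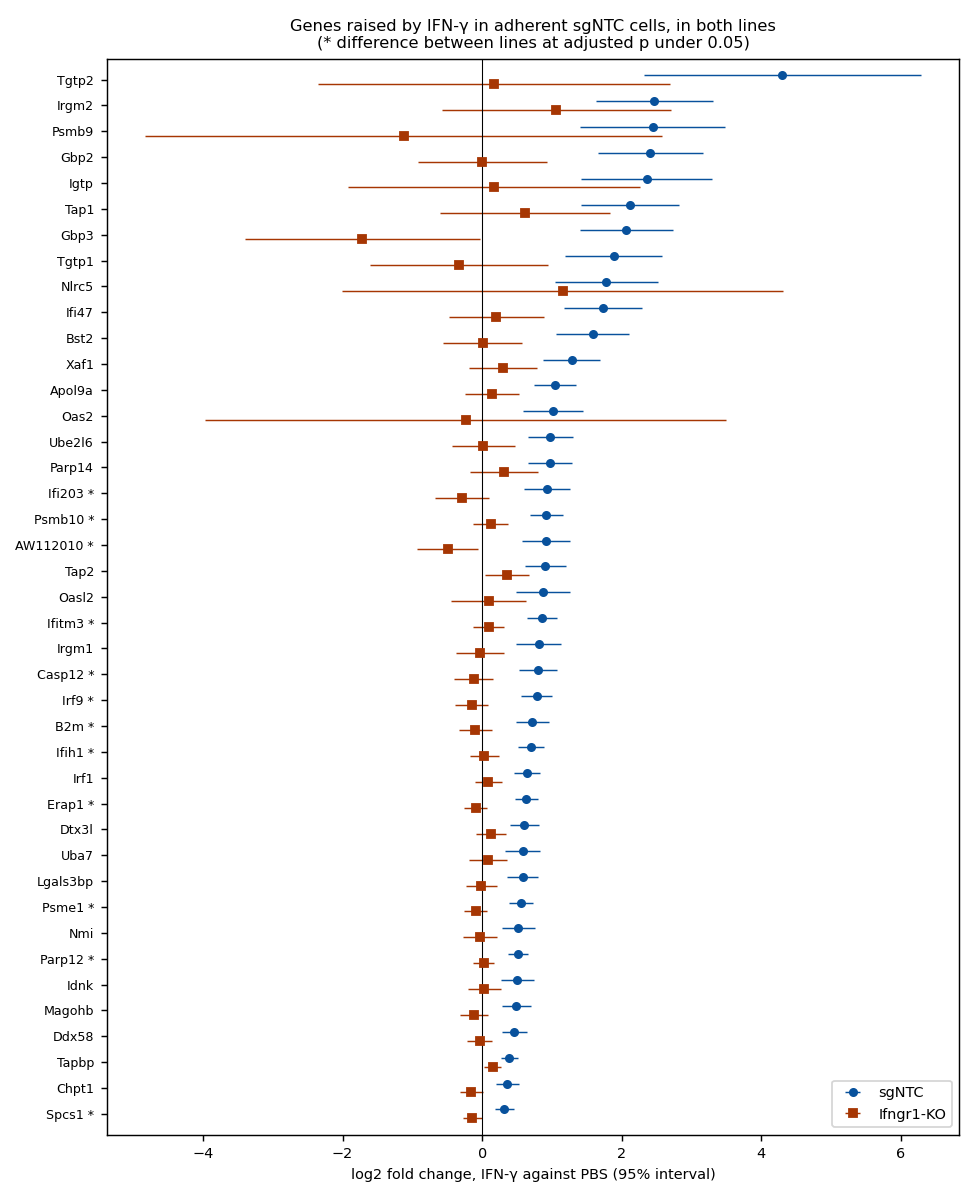
IFN-gamma effect (log2 fold change against PBS, with 95% intervals) of 41 of the 43 genes that rose in adherent sgNTC cells, in sgNTC (circles) and Ifngr1-KO (squares). The sgNTC values chose the genes. The knockout values scatter around 0, with a median of 0.02, and 37 of the 41 intervals lie below the sgNTC estimate. The direct test of the difference, which holds the sgNTC values that chose the genes, called 12 of the 43.

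For the 43 genes that rose in sgNTC cells the knockout effect was measured in libraries that did not choose them. None passed the test in the knockout. The median knockout effect was 0.0151 on the log2 scale, 25 of 43 lay above 0, and the median sgNTC effect, which the choice raised, was 0.874. The 95% interval of the knockout effect included 0 for 37 genes, lay above 0 for 3 and below 0 for 3. The 3 above 0 make 6.98%, against 4.91% of all genes tested. Tap2, a transporter chain, and Tapbp, the tapasin chaperone, were among them, and the choice of these names followed their values. Tapbp had 123, 123 and 126 CPM with PBS and 142, 141 and 130 with IFN-gamma in the knockout, an effect of 0.15 (adjusted p = 0.53).

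For 39 of the 43 genes the knockout interval lay below the sgNTC estimate, which the choice raised, and for 4 it included that estimate. This comparison leaves out the error of the sgNTC estimate. In the direct test of the difference 12 of the 43 were called smaller (0.0957% of all genes tested were) and none larger. That test holds the sgNTC response that chose the genes, so this count follows in part from the choice. Levels before treatment differed too: 38 of the 43 were higher in untreated sgNTC than in untreated knockout cells, with a median ratio of knockout to sgNTC of 0.697. That share and ratio were not computed over all genes tested, so no excess is read from them. For 30 of the 43 every untreated sgNTC library lay above every treated knockout library, which held for 26.9% of all genes tested. The lines also differed in genes outside the pathway. Muc16, a mucin of the ovarian surface, stood at 14.8 to 18.7 CPM in the sgNTC libraries and at 0 to 0.451 in the knockout. The loss of Ifngr1 and other differences between these lines cannot be told apart.

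Among antiviral and type I signature genes 3 of 48 had a smaller response (0.0957% of all genes tested did) and none a larger one, with a median of -0.49 over 45 members. Treated sgNTC libraries all exceeded untreated ones for 32 of the 48 (6.72% of all genes tested). Treated knockout libraries did so for 3 of the 48 (7.69% of all genes). Ifitm3, which blocks virus entry at the endosome, went from 8.20, 9.23 and 7.33 CPM to 16.2, 14.3 and 14.5 in sgNTC cells. The knockout libraries read 6.58, 5.68 and 7.32 with PBS and 6.18, 7.56 and 7.10 with IFN-gamma, and overlapped. The interaction was -0.77 ± 0.15 (adjusted p = 0.0233).

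Ifih1, the sensor of long double-stranded RNA, rose from 12.4, 11.4 and 12.7 CPM to 18.9, 20.7 and 19.7, while its 6 knockout libraries lay at 6.35 to 7.83. Its interaction was -0.66 ± 0.14 (adjusted p = 0.0262). Parp12, an antiviral mono-ADP-ribosyltransferase, rose from 27.7, 28.6 and 29.9 CPM to 43.7, 41.1 and 38.0, while the knockout stayed at 24.2 to 26.6. Its interaction was -0.49 ± 0.10 (adjusted p = 0.0372). For both, every knockout library lay below every sgNTC library. Bst2, which tethers budding virions, had -1.58 ± 0.37 and was not called (adjusted p = 0.107), though it was with a replicate block, by DESeq2, without the filter and with only the adherent libraries fitted. Isg15, a ubiquitin-like modifier, had -0.49 ± 0.27 (adjusted p = 0.514). Ifit3, an RNA-binding antiviral protein, had 65 and 91 counts in the sgNTC groups and 0 in both knockout groups.

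Outside the fixed interferon lists, AW112010 and Ifi203 had the lowest interactions among the called genes. AW112010, an interferon-inducible transcript, rose from 3.34, 4.48 and 3.83 CPM to 7.80, 6.90 and 7.01 in sgNTC cells. In the knockout it read 1.38, 2.34 and 2.29 with PBS and 1.73, 1.05 and 1.52 with IFN-gamma. Knockout groups overlapped, and the 95% interval of the knockout effect (-0.93 to -0.06) lay below 0 without passing the test. The interaction was -1.41 ± 0.27 (adjusted p = 0.0233). Ifi203, of the interferon-inducible DNA-binding protein family, had one of -1.22 ± 0.25 (adjusted p = 0.0262), with 2.31 to 4.17 CPM becoming 5.99 to 6.59 in sgNTC cells and 1.93 to 2.48 becoming 1.60 to 2.16 in the knockout. Ifi203 belongs to a cluster of similar genes, among which shared reads may have been split.

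Casp12, an inflammatory-type caspase, was the 1 member of 25 tested death-pathway genes with a smaller response (0.0957% of all genes tested had one). It rose from 5.57, 3.97 and 4.36 CPM to 7.53, 7.90 and 9.11 in sgNTC cells and read 4.07, 4.07 and 4.80, then 3.62 to 4.28, in the knockout. Knockout groups overlapped. The interaction was -0.92 ± 0.19 (adjusted p = 0.0316). Casp4, next to it on chromosome 9, had -0.10 (adjusted p = 0.763).

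Atp5l, Spcs1 and Srek1ip1 belong to none of the interferon lists. In each, treated libraries averaged above untreated ones in sgNTC and below them in the knockout. Atp5l, a subunit of the mitochondrial ATP synthase, read 22.3, 23.2 and 24.4 CPM, then 29.9, 29.0 and 29.9, in sgNTC cells, and 28.6, 30.7 and 35.1, then 26.0, 26.2 and 25.0, in the knockout. Both pairs of groups were apart, in opposite directions. Neither effect alone was called, and the interaction was -0.64 ± 0.13 (adjusted p = 0.0233). Its call was lost without the third Ifngr1-KO PBS library, the one that stood apart.

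Spcs1, a signal peptidase subunit, read 43.7, 46.8 and 42.5 CPM, then 55.7, 56.8 and 53.6, in sgNTC cells, and 50.7, 46.1 and 52.2, then 45.8, 44.6 and 44.8, in the knockout. Its interaction was -0.46 ± 0.09 (adjusted p = 0.0233). Srek1ip1, which binds the splicing regulator Srek1, had medians of 17.8 CPM, then 22.8, in sgNTC cells, and of 26.7, then 24.0, in the knockout (-0.60 ± 0.13, adjusted p = 0.0445). With an offset for GC content all 3 lost their calls, and their interactions were -0.54 for Atp5l, -0.36 for Spcs1 and -0.50 for Srek1ip1.

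The 5 genes with a larger response encode a splicing-related protein and proteins of the actin cytoskeleton and its linkers. In sgNTC cells each was lower in all treated than in all untreated libraries, without passing the test. In the knockout each was higher in all treated libraries. Of all genes tested 6.38% and 7.69% were so. The same libraries chose the 5 genes, so their separation follows in part from the choice and adds no support. Scaf1, a protein with serine- and arginine-rich domains that binds RNA polymerase II, was the only gene called within the knockout. It read 70.0, 72.4 and 72.1 CPM with PBS and 90.4, 88.5 and 90.3 with IFN-gamma there, an effect of 0.33 (95% interval 0.22 to 0.44, adjusted p = 0.01). In sgNTC cells it read 84.5, 84.0 and 91.7, then 83.3, 77.5 and 79.6. Treated knockout libraries thus came up to the level of untreated sgNTC libraries. The interaction was 0.44 ± 0.08 (adjusted p = 0.00869). With an offset for GC content it was 0.25 (adjusted p = 0.415) and the effect in the knockout 0.20 (adjusted p = 0.621), neither called.

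Rhob, a small GTPase of endosomes and actin, read 124, 129 and 129 CPM, then 111, 117 and 102, in sgNTC cells, and 67.0, 65.8 and 77.4, then 82.7, 83.9 and 85.8, in the knockout. Its interaction was 0.47 ± 0.08 (adjusted p = 0.00887). Plec, the cytolinker plectin, read 341 to 372, then 321 to 326, in sgNTC cells, and 466 to 501, then 560 to 589, in the knockout (0.41 ± 0.07, adjusted p = 0.00887). Myh9, the heavy chain of nonmuscle myosin IIA, had 0.33 ± 0.06 (adjusted p = 0.0218). Hip1r, which links clathrin coats to actin, had 0.43 ± 0.09 (adjusted p = 0.0262). Within the knockout the 95% intervals of these 4 effects lay above 0, and none was called there. With an offset for GC content none of the 4 interactions was called, and they were 0.38 for Rhob, 0.23 for Plec, 0.22 for Myh9 and 0.32 for Hip1r.

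Of all genes tested 0.0342% were called larger and 6.46% were larger at an unadjusted p under 0.05. Of 21 genes of nonmuscle myosins and their regulators Rhob and Myh9 were called and 3 were larger at that threshold, with a list median of 0.04. Myh10, a related heavy chain, had 0.14 (adjusted p = 0.443). Of 16 cytolinkers and membrane-actin adaptors Plec and Hip1r were called and 6 were larger at that threshold, with a median of 0.18. Of 21 SR-related splicing factors Scaf1 was called, 3 were larger and 2 smaller at that threshold, with a median of -0.01. None of 21 actin and SRF target genes and none of 18 tested extracellular matrix genes was called, with 7 and 6 larger at that threshold and medians of 0.12 and 0.24. The collagen chains Col4a1 and Col4a2 had interactions of 0.36 and 0.34 (adjusted p = 0.138 and 0.132). With an offset for GC content the medians of the actin and matrix lists were 0.03 and 0.12.

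**Figure D3:**
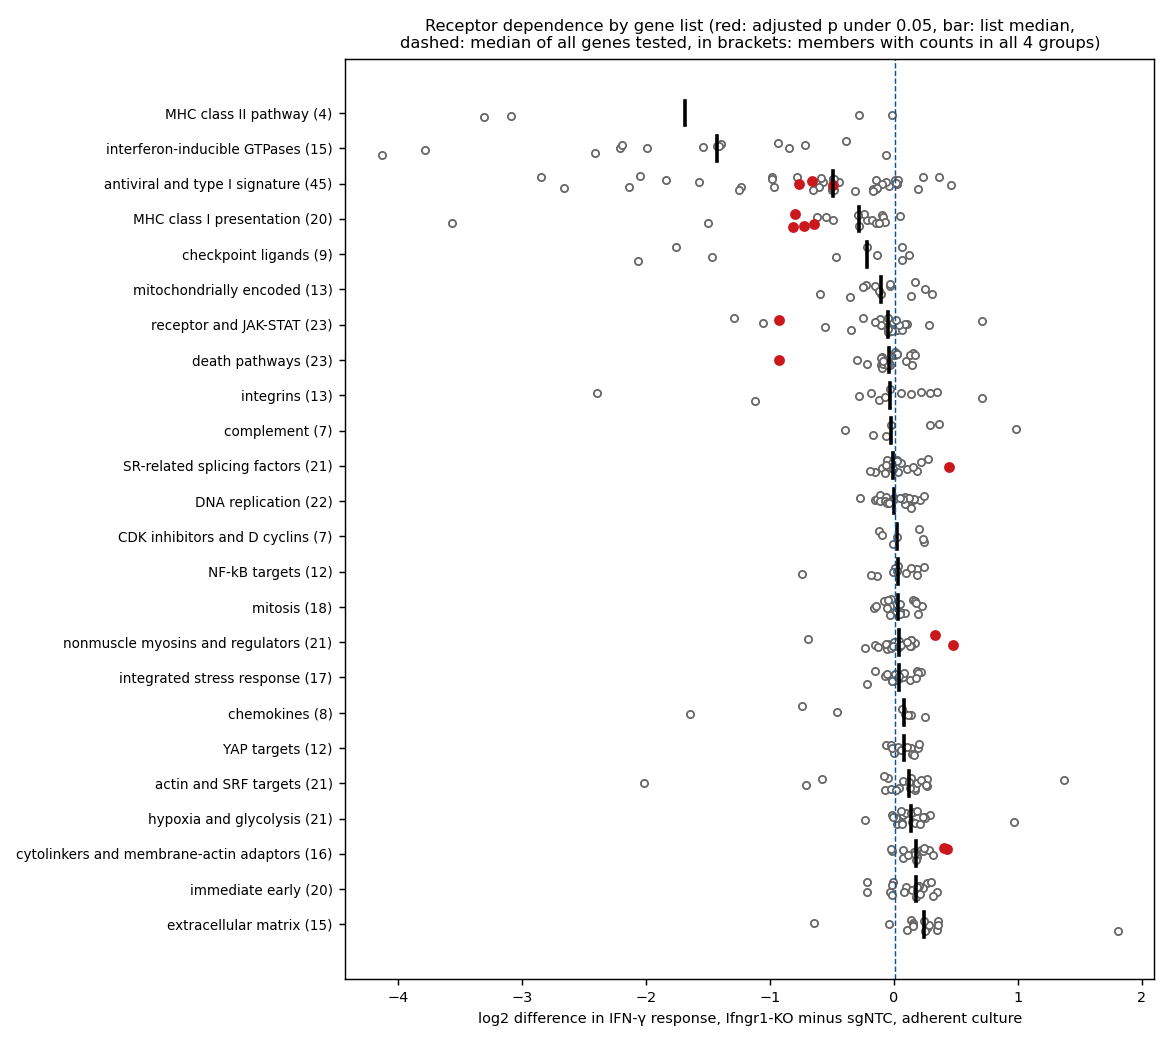
Interaction on the log2 scale (knockout minus sgNTC response, horizontal axis) of the members of each gene list that had counts in all 4 adherent groups. Each point is a gene, red where called, the bar is the list median and the dashed line the median of all genes tested. The interferon-inducible GTPases have a median of -1.42 with no red point, and the MHC class I list has 4.

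Growth and stress lists held no call. None of 18 mitosis, 22 DNA replication, 17 integrated stress response, 21 hypoxia and glycolysis or 12 NF-kB target genes passed in either direction, and their medians lay between -0.0031 and 0.14. Of the checkpoint ligands, Cd274, which encodes PD-L1, read 4.88 to 6.56 CPM, then 7.28 to 10.5, in sgNTC cells, and 2.59 to 6.47, then 5.21 to 6.50, in the knockout. Its sgNTC groups were apart, and its interaction was -0.47 ± 0.42 (adjusted p = 0.748). Of the MHC class II pathway only 4 of 11 genes were tested, with a median of -1.68, and 2 were smaller at an unadjusted p under 0.05, none called. Ciita, the transactivator of the class, had -3.09 ± 1.18 (adjusted p = 0.257) on 14 and 42 counts over the sgNTC libraries with PBS and with IFN-gamma and 11 and 5 over the knockout libraries. Cd74, the invariant chain, had -0.28 ± 0.54. The chemokine Cxcl10 stayed at or below 1.26 CPM in all 12 libraries.

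The GC content of genes moved with the result. Across 9091 genes above 3 on the log2 CPM scale, Pearson's r between the interaction and the GC content of the gene's longest transcript was 0.529, and 0.533 for the knockout effect and -0.317 for the sgNTC effect. Genes are not independent replicates, and these values share the 12 libraries. In the twentieth of genes lowest in GC the median interaction was -0.13 and in the twentieth highest 0.18. Each library's log2 slope on GC content, per 10 percentage points, was 0.0257 to 0.0811 in the knockout with IFN-gamma and -0.0526 to 0.0105 in the knockout with PBS, with no overlap. The sgNTC slopes overlapped, at -0.0724 to 0.00916 with IFN-gamma and -0.0217 to 0.0322 with PBS.

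The 5 genes with a larger response had a median GC content of 57.0%, the 14 with a smaller response 41.5%, and all genes tested 49.4%. After an offset for each library's GC trend, chosen after seeing the data, 7 genes were called, all with a smaller response (0.0479%), and none with a larger one. They were Psme1, Irf9, Psmb10, Erap1, Ifitm3, Parp12 and Atp5g2, the last a further ATP synthase subunit. With an offset for GC content and length 10 were called, 8 smaller and 2 larger, and Rhob was among the larger. The part of this trend in the calls was not tested beyond these offsets.

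**Figure D4:**
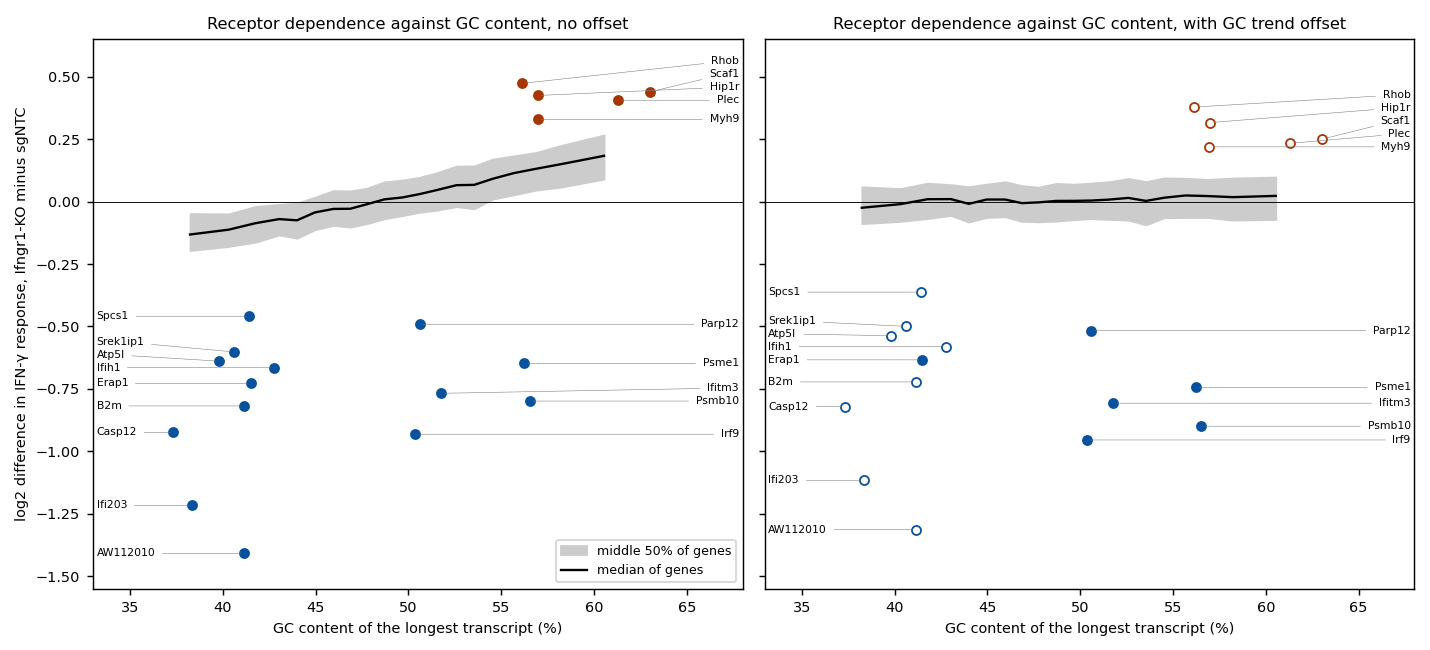
Interaction on the log2 scale against the GC content of the gene's longest transcript (percent), without (left) and with (right) an offset for each library's GC trend. The line and band are the median and middle 50% of genes in 20 bins of GC content. Points are the 19 genes called without the offset, blue for smaller and orange for larger responses, filled where called in that panel. The line climbs from -0.13 to 0.18 on the left and stays near 0 on the right, where 6 of the 19 remain filled.

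Detached cells gave a second measure of receptor dependence in libraries that share none with the adherent ones. There 195 genes were called (1.33%), 116 with a smaller response in the knockout (0.793%) and 79 with a larger one (0.540%). Of the 14 adherent genes with a smaller response 10 were also smaller in ULA culture, 71.4% of the adherent and 8.62% of the ULA calls. The 4 others were Psme1, Spcs1, Atp5l and Srek1ip1, with ULA interactions of -0.39, -0.28, -0.38 and -0.11. Of the 5 larger genes Plec and Myh9 were shared, 40.0% of the adherent and 2.53% of the ULA calls.

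Genes picked by the ULA sgNTC response alone were then read in the adherent interaction. Of the 192 genes that IFN-gamma raised in ULA sgNTC cells (1.31%), 11 had a smaller adherent response in the knockout and none a larger one. Of all genes tested 0.0957% were called smaller. At an unadjusted p under 0.05, 75 of the 192 were smaller (4.69% of all genes tested) and 1 larger (6.46%). The median adherent interaction of the 192 was -0.24, against 0.01 for all genes tested. Of the 108 genes that IFN-gamma lowered there (0.739%), 1 was called larger (0.0342% of all genes tested). Their median was 0.17, or 0.09 with an offset for GC content. These 108 genes had a median GC content of 55.0%.

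A difference of receptor dependence between adherent and ULA culture was not called for any gene by edgeR's quasi-likelihood test, with 716 genes at an unadjusted p under 0.05 and 4 called by DESeq2. Stat2 had an interaction of -0.35 on adherent plates and -1.38 in ULA plates (difference 1.03 ± 0.21, adjusted p = 0.332), and Irf1 -0.56 and -1.44 (0.88 ± 0.18, adjusted p = 0.332). The 4 genes that DESeq2 called included Stat2, Irf1 and Gas1, and without the second ULA sgNTC IFN-gamma library edgeR called 5, among them Stat2, Irf1, Irgm1 and Samhd1. Without the third adherent Ifngr1-KO PBS library it called Ier2 and Gas1, and without the first adherent sgNTC IFN-gamma library Stat2. For Erap1 and Irf9 the cultures differed by 0.05 ± 0.16 and -0.13 ± 0.22.

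The number of genes called depended on single libraries. Without the third sgNTC PBS library 2 genes were called, Erap1 and Irf9, and without the first one 10. Without the second Ifngr1-KO IFN-gamma library 12 were called, and without the second or the third sgNTC IFN-gamma library 12 and 11. Without the third Ifngr1-KO PBS library 22 were called, 10 smaller and 12 larger, and AW112010, Ifitm3, Atp5l, Casp12, Psmb10, Parp12 and B2m were no longer among them. Erap1 and Irf9 alone kept their calls in every refit. Psme1 lost its call in 1 of 22, Rhob in 2, Scaf1 and Plec in 3 each, and B2m in 16. Of the 12 fits that left out a library, Spcs1 kept its call in 8, AW112010, Ifitm3 and Atp5l in 7, Myh9 in 6, Hip1r, Ifi203, Ifih1, Casp12 and Psmb10 in 5, Srek1ip1 in 4 and Parp12 in 2. With halved counts AW112010, Ifitm3, Ifi203, Ifih1, Casp12, Psmb10, Parp12, Srek1ip1 and B2m lost their calls. No called gene changed the sign of its interaction in any refit. With 2 samples left in a group, that group is assumed to vary like the others.

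**Figure D5:**
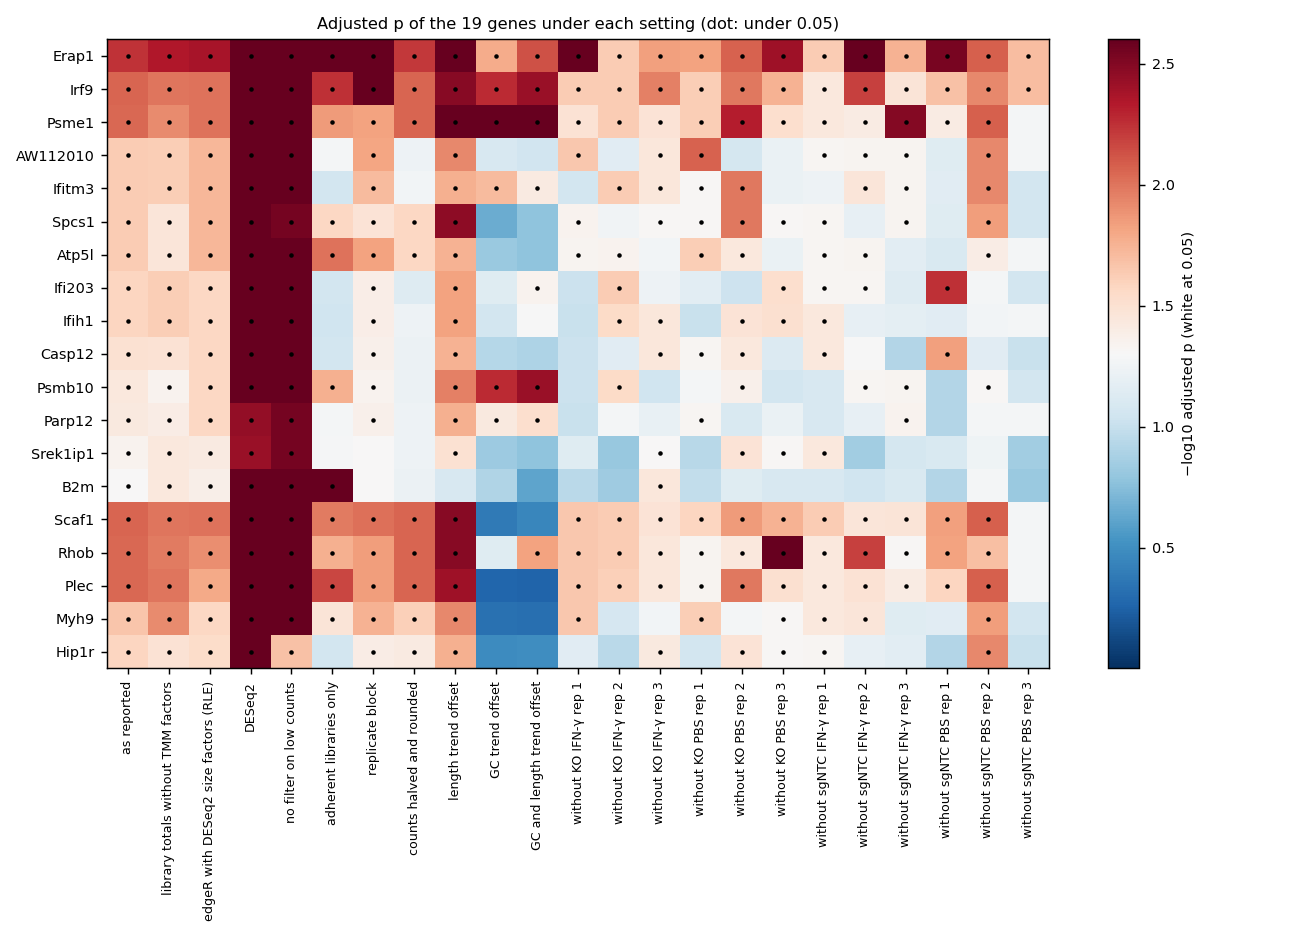
Adjusted p of the 19 called genes (rows) under each setting (columns), as minus log10, white at 0.05, red below it, blue above it, with a dot where p is under 0.05. Erap1 and Irf9 have a dot in every column, and the 5 genes at the bottom, with larger responses, lose it in the column with the GC trend offset.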

How the data were processed

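RNA-seq counts per gene were deposited by the authors, 1 table per library. Reads were counted with featureCounts 2.1.1 per the file headers, and Trimmomatic, HISAT2, SAMtools and DESeq2 and the builds mm10 and GRCm38 are named in the submitters' processing notes. In each adherent library 61.4 to 67.2% of the counts from 1 to 20 were even numbers, so both mates of a pair may have been counted, and halving was tried. The tables hold 31062 features, 30934 with a symbol, and 9 transgenes. GENCODE M21 on GRCm38 gave a position for 31011.

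Genes were filtered by filterByExpr (minimum count 10), leaving 14622. All 24 libraries in 8 groups were fitted in edgeR 4.0.16 (TMM factors, quasi-likelihood test, robust), two-sided, with Benjamini-Hochberg adjustment over all genes and calls at an adjusted p under 0.05. Standard errors come from the same fit, with 16 residual degrees of freedom, and intervals are 95%. The biological coefficient of variation was 0.0771. The fits were tested on simulated data. Intervals cover the spread between libraries, which may be partly technical.

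Genes were named by a fixed rule: the called genes with a symbol, up to 4 per gene list with the smallest p and at least 5 CPM in an adherent group, and a fixed set of pathway genes. The genes, lists and groups were chosen with earlier results of these data known. Lists are described by counts and medians, without a test of the list. Alternatives were other scaling, DESeq2 1.42.0, no filter, adherent libraries alone, a replicate block, halved counts, offsets for length and GC trends, and leaving out each library. The GC offset and the GC and length offset were chosen after seeing the data. Some genes are not reported here and are left out of the plot of both responses.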

Additional observations from a re-analysis of the deposited data

Results flagged for a closer look

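The test of the difference between the lines singled out 19 genes whose IFN-gamma effect was not the same in Ifngr1-KO and sgNTC cells on adherent plates. On the log2 scale, knockout minus sgNTC, the difference was -1.41 for AW112010, -1.22 for Ifi203, -0.93 for Irf9, -0.92 for Casp12, -0.82 for B2m, -0.80 for Psmb10, -0.77 for Ifitm3 and -0.73 for Erap1. It was -0.66 for Ifih1, -0.65 for Psme1, -0.64 for Atp5l, -0.60 for Srek1ip1, -0.49 for Parp12 and -0.46 for Spcs1. It was 0.33 for Myh9, 0.41 for Plec, 0.43 for Hip1r, 0.44 for Scaf1 and 0.47 for Rhob.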

How the results depend on the processing

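For receptor dependence, where 19 genes were called, DESeq2 called 96 (59 smaller, 37 larger), no filter on low counts 180 (118 smaller, 62 larger), halved counts 10 (5 smaller, 5 larger), the GC offset 7 and the GC and length offset 10, and leaving out 1 library gave 2 to 22. Other scalings gave 21 and 22, the length offset 25, and the adherent libraries alone 27, of which 11 were shared with the 19. The sgNTC response, with 46 calls, gave 83 with DESeq2, 175 without the filter and 25 to 40 with a library left out, with 25 and 28 when the first and the third sgNTC PBS library were left out. The knockout response, with 1 call, gave 25 with DESeq2, 31 without the filter, 6 with the length offset, 0 with the adherent libraries alone, 0 with the GC offset and 0 to 3 with a library left out. The difference between cultures, with 0 calls, gave 4 with DESeq2, 41 without the filter and 0 to 5 with a library left out. With the length offset the knockout calls were Scaf1, Jund, Ripor1, Plec, Myh9 and Prrc2a, and with the GC and length offset the 1 call was Atp5g2, lower. The cause of these changes was not tested. No named gene changed sign with a call.

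Same-numbered adherent libraries did not deviate together: of 18 pairs 5 had a correlation above 0.1 (range -0.333 to 0.237), so the numbers were not treated as pairing. A replicate block gave 22 calls for receptor dependence, 49 for the sgNTC response, 1 for the knockout response and 0 for the difference between cultures, and Srek1ip1 and B2m lost their calls for receptor dependence under it, while Bst2 and Gbp3 gained one.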

Other observations

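Ribosomal proteins and subunits of oxidative phosphorylation, families chosen after Atp5l was seen, mostly had interactions below 0, with few calls. Of 76 cytosolic ribosomal protein genes 66 had an interaction below 0, with a median of -0.22, 23 were smaller at an unadjusted p under 0.05 (4.69% of all genes tested were) and none was called. The median was 0.12 in the sgNTC response and -0.08 in the knockout response. With the GC offset the median interaction was -0.22, with the GC and length offset -0.18, and without the third Ifngr1-KO PBS library -0.12, where 54 of 76 were below 0.

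Of 84 nuclear-encoded oxidative phosphorylation genes 69 lay below 0, with a median of -0.18 and Atp5l as the 1 call, and 23 were smaller and 2 larger at an unadjusted p under 0.05. Without the third Ifngr1-KO PBS library the median was -0.10 and none was called. That library had the lowest slope of level on gene length in the adherent groups, -0.297 on the log2 scale per 10-fold length, against -0.11 to 0.18 in the other 11. With an offset for each library's length trend the ribosomal median was -0.21, with 70 of 76 below 0 and Rpl27a called, and the oxidative phosphorylation median -0.18, with 70 of 84 below 0 and Atp5g2 and Atp5l called.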
